A study of Arabidopsis thaliana with 15 samples.

Results

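RPS2 is an intracellular resistance protein of Arabidopsis thaliana that guards the plant protein RIN4 and is activated when the bacterial effector AvrRpt2 cleaves RIN4. Leaves with RPS2 then mount effector-triggered immunity, with defence gene induction and, often, local cell death, whereas a leaf without it still perceives general bacterial patterns through surface receptors. The genotype-by-time interaction isolates the transcripts whose change after infiltration differed between leaves with and without RPS2.

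The interaction was taken as the change of Col-0 from 0 to 10 h less the change of the rps2 mutant over the same times. A positive value means a larger rise, or a smaller fall, in Col-0. It drew on 12 of the 15 arrays of the series, 3 each of Col-0 at 0 h, Col-0 at 10 h, rps2 at 0 h and rps2 at 10 h, and 11 of them entered the test. Every plant was 4 weeks old and grown on soil at 22 °C in a 12 h day, and mature leaves of all groups, those labelled 0 h included, received Pseudomonas syringae pv. maculicola (Psm in the labels) carrying AvrRpt2 at an optical density of 0.01 in 10 mM MgSO4. The labels name Col-0 as the wild type and give no allele for rps2, no mock infiltration and no clock time of sampling. Infiltration and time of day therefore cannot be told apart within a genotype. The labels name no batch either, so genotype cannot be told apart from hour or batch of sampling, at 0 h or in the interaction. They number the samples as replicates without saying that these came from separate plants, so the p-values measure the spread between these arrays. A leaf holds many cell types, and fewer cells of a type cannot be told apart from less RNA per cell. RPS2 itself had no named probe set and is not analysed here.

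Values are log2 signals centred on each probe set's own median, so they give differences between arrays and no absolute level, and the levels of leaf markers could not be checked. One array stood apart. The third array labelled rps2 10 h differed from the rps2 0 h arrays by an SD of 0.170 to 0.200 over all probe sets, against 0.185 to 0.240 among those 0 h arrays themselves. It differed from the other rps2 10 h arrays by 0.949 and 0.942, which differed from each other by 0.207. It was left out of the test, its values are printed below as the left-out array, and results that turn on it are given with it as well. A further feature of the whole data set bears on the sign. The poly-A spike-in transcripts, added to the RNA before labelling, averaged 0.98 ± 0.13 (SD, n = 3) in Col-0 at 10 h and -0.25 ± 0.35 (SD, n = 2) in rps2 at 10 h, against -0.10 and 0.07 at 0 h. Scaling to these spike-ins instead of to the bulk of transcripts lowers every interaction by 1.39.

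Of 22746 probe sets tested, 11773 (51.8%) had an interaction at a Benjamini-Hochberg adjusted p under 0.05, and they are called below. They split into 6019 positive (26.5%) and 5754 negative (25.3%), and 6163 (27.1%) had an absolute interaction of at least 1. The ranges of change, each 10 h array less each 0 h array, did not overlap between genotypes for 11798 (51.9%), and 11161 (49.1%) met both criteria. On the spike-in scale 1193 interactions were called positive and 19509 called negative. With the left-out array kept, 10112 (44.5%) were called, of which 9888 were also called without it, each with the same sign. The call boundary was gradual, with the last probe set inside at 0.30 (adjusted p = 0.04996) and the first outside at 0.34 (adjusted p = 0.0501). The median standard error of an interaction was 0.15.

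Across all probe sets the changes of the 2 genotypes, which share no arrays, ran in the same direction with a smaller size in rps2. Their Pearson correlation over probe sets was 0.648 and the slope of the rps2 change on the Col-0 change was 0.363. The SD of the change was 1.67 in Col-0 and 0.94 in rps2. Probe sets are not independent replicates, so these are descriptions of the arrays. The change from 0 to 10 h was called for 14598 probe sets (64.2%) in Col-0 and for 10937 (48.1%) in rps2.

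An interaction equals the difference between genotypes at 10 h less their difference at 0 h, and either can carry it. At 0 h, 6854 probe sets (30.1%) already differed between Col-0 and rps2 at an adjusted p under 0.05, and these are termed different at 0 h. A further 15833 were not past that threshold and had a 95% confidence interval of the 0 h difference inside a log2 value of 1 either way, that is within 2-fold, and these are termed close at 0 h. The remaining 59 were unresolved, and 38 of them were called. The classes use the same 0 h arrays as the interaction, so a deviation of those arrays enters both.

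Probe sets close at 0 h supplied 6513 of the called interactions (55.3%), 3544 positive and 2969 negative, with a median absolute size of 0.92. In 2886 of them both genotypes changed in the same direction and Col-0 changed more, and in 2458 the change was called in Col-0 but not in rps2. The reverse, a larger change in rps2 in the same direction, was found for 143. A change called in rps2 but not in Col-0 was found for 501, and opposite changes for 375. At 10 h the genotypes differed for 6234 of the 6513, beside 57.4% of all probe sets at that time. That follows largely from the selection, since a called interaction with a small 0 h difference implies a 10 h difference.

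Probe sets different at 0 h supplied 5222, or 44.4%, with 2464 positive and 2758 negative and a median absolute size of 1.23. For 2920 of these the genotypes differed again at 10 h with the opposite sign, so that the order of the genotypes turned over. For 928 the difference had the same sign and was larger, and for 220 it was smaller. In 1154 the genotypes were not past the threshold at 10 h, which does not show that their levels were equal then. Over all 5222, the 0 h difference was the larger of the pair in 2104 probe sets and the 10 h difference in 3118. Requiring a 0 h difference of at least 1 left 1067 such called probe sets, and in 693 of those the 0 h difference was the larger.

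**Figure D1:**
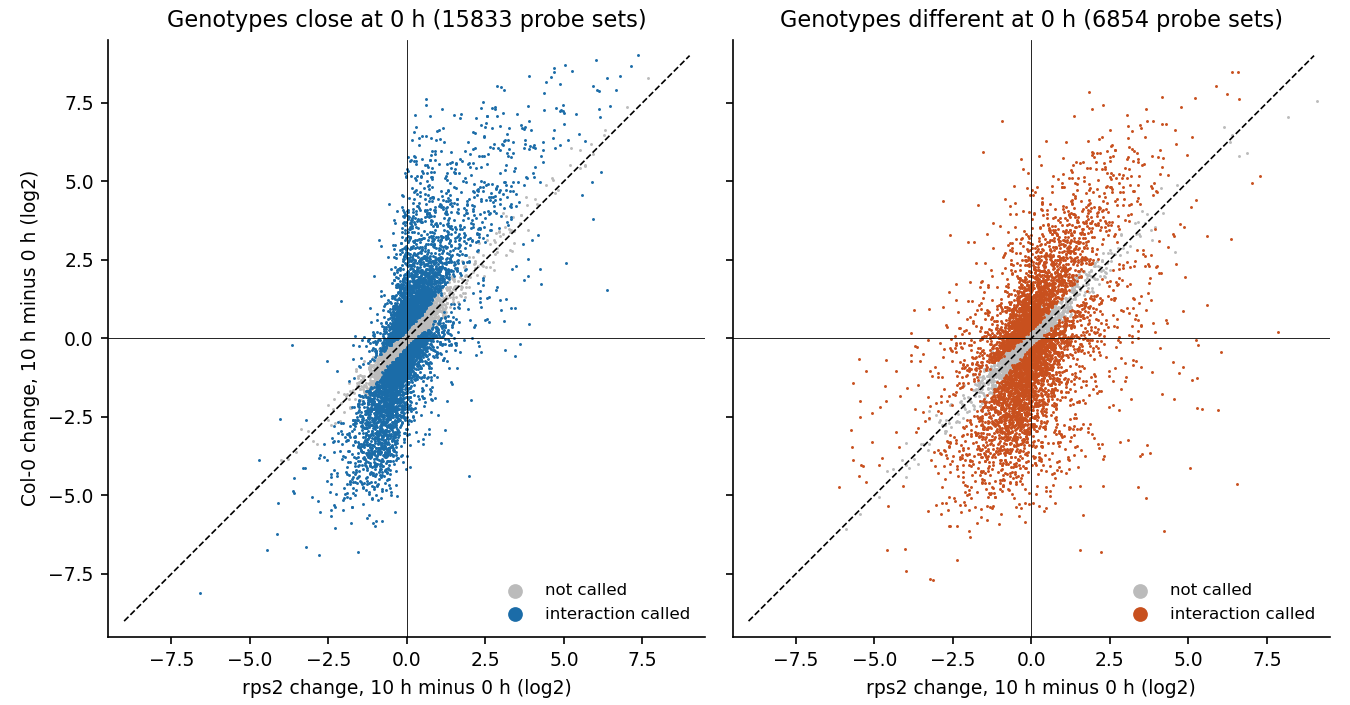
Change from 0 to 10 h in rps2 (horizontal, log2) and Col-0 (vertical, log2), 1 point per probe set, for the 15833 probe sets close at 0 h (left) and the 6854 different at 0 h (right). Coloured points have a called interaction, grey points do not, and the dashed line marks equal changes. Most coloured points on the left lie on a steeper course than the dashed line, while those on the right spread into the quadrants of opposite change.

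Among genes close at 0 h, the positive interactions named for their size included 3 beta-glucosidase genes (BGLU27, BGLU45 and BGLU46) and 3 glycosyltransferase genes (UGT73B4, UGT73B5 and UGT73C7). BGLU45, a beta-glucosidase gene, read -0.74, -0.50 and -0.63 in Col-0 at 0 h and 6.65, 7.05 and 6.69 at 10 h. In rps2 it read -0.47, -0.53 and -0.55 at 0 h, 0.00 and 0.20 at 10 h, and -0.74 on the left-out array. The rise was 7.42 ± 0.12 (SE) in Col-0 and 0.61 ± 0.13 in rps2, and the 10 h ranges lay far apart. The interaction was 6.81 ± 0.17 (adjusted p = 6.47e-13).

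Its relatives BGLU27 and BGLU46 had interactions of 6.33 ± 0.32 and 5.59 ± 0.28. BGLU46 rose by 5.82 in Col-0, while its rps2 change of 0.23 ± 0.21 was not past the threshold (adjusted p = 0.41). Across all 20 named members of the BGLU family 10 interactions were positive and 5 negative, with a median of 0.40. These are 8 and 3 with the left-out array kept. BGLU44 had the lowest at -4.14 ± 0.18.

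Glycosyltransferases of the UGT73 group, which attach glucose to small molecules, had values of similar size. UGT73B4 read -0.06, -0.09 and -0.11 in Col-0 at 0 h and 5.51, 5.66 and 5.51 at 10 h. The rps2 arrays read -0.13, -0.30 and -0.25 at 0 h, 0.00 and 0.10 at 10 h, and -0.17 on the left-out array. All Col-0 values at 10 h stood more than 5 above every rps2 value. Its interaction was 5.37 ± 0.14, beside 5.55 ± 0.16 for UGT73B5 and 5.30 ± 0.19 for UGT73C7. For UGT73B5 and UGT73C7 the rps2 changes of 0.14 and 0.04 did not pass the test. Over the 47 named UGT genes 16 interactions were positive and 12 negative, with a median of 0.15, shares not far from the 26.5% and 25.3% of all probe sets.

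The cell wall peroxidase gene Prx37 rose by 7.12 ± 0.12 in Col-0 and by 1.51 ± 0.13 in rps2, an interaction of 5.60 ± 0.18. CCOAMT, a methyltransferase gene of phenylpropanoid synthesis, rose by 5.96 and 1.08, an interaction of 4.88 ± 0.18. The largest positive value among the single-probe-set genes of the class was that of AT1G30700, which read 6.51, 6.90 and 6.92 in Col-0 at 10 h against 0.20 and 0.00 in rps2, from 0 h values between -0.43 and -0.07 in both. Its interaction was 6.86 ± 0.18, and its rps2 change of 0.26 ± 0.13 was not past the threshold (adjusted p = 0.12).

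Among calcium sensors of the calmodulin-like family, CML37 and CML38 rose in both genotypes and further in Col-0. CML37 read -2.14, -2.20 and -2.02 in Col-0 at 0 h and 4.62, 4.89 and 5.19 at 10 h. In rps2 it rose from -2.22, -1.99 and -2.35 to 0.00 on both arrays, with -2.27 on the left-out array. The rise in rps2 was 2.19 ± 0.14, and that in Col-0 was 7.01 ± 0.12. CML38 gave a similar pair of rises, 6.80 and 2.35. CML23 rose by 3.78 in Col-0 while its rps2 change of -0.41 was not past the threshold. The interactions were 4.83 ± 0.19, 4.46 ± 0.30 and 4.19 ± 0.30.

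One relative went the other way. CML41 rose in Col-0 from between -4.25 and -3.98 to 1.04, 0.68 and 0.90, and in rps2 from between -4.09 and -3.64 to 2.01 and 2.07. Both rps2 values at 10 h were above all Col-0 values. The interaction of -0.91 ± 0.18 (adjusted p = 3.93e-04) depended on the left-out array, which read -3.81, and with it kept the value was 1.04 ± 1.58 (adjusted p = 0.64). Of the 7 named CML genes 4 interactions were positive and 1, that of CML41, negative, with a median of 2.28.

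**Figure D2:**
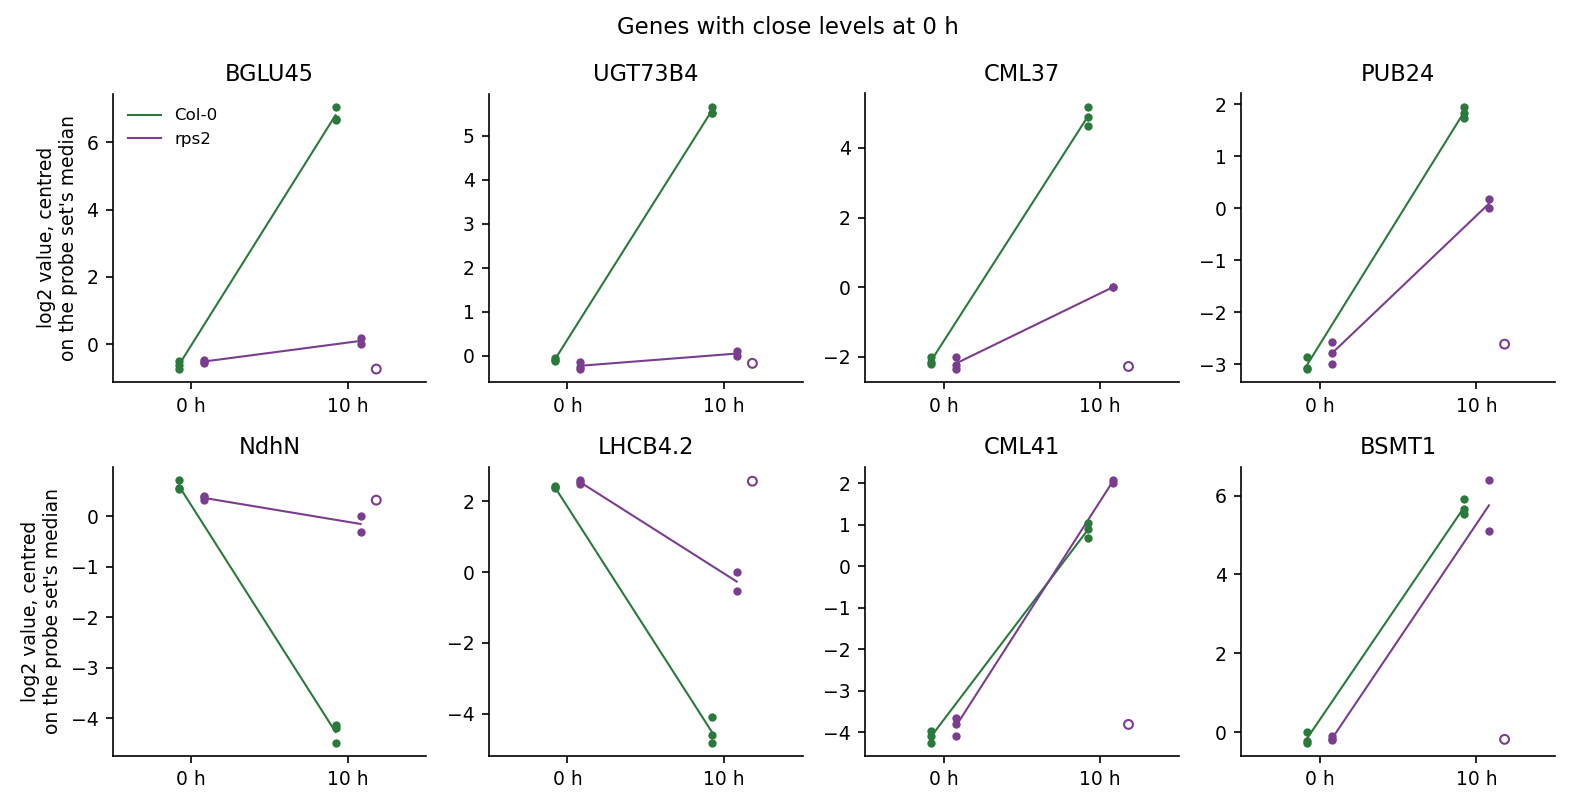
Centred log2 values at 0 and 10 h for BGLU45, UGT73B4, CML37, PUB24, NdhN, LHCB4.2, CML41 and BSMT1, 1 filled point per array (3 per group, 2 for rps2 at 10 h). Lines join group means, Col-0 in green and rps2 in purple, and the open circle is the left-out rps2 10 h array. Starting levels coincide in each panel, the courses part in the first 6, and those of CML41 and BSMT1 run nearly together.

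The measured genes on a list of pattern-triggered immunity also changed more in Col-0. All 5 measured members of a list of 17 (BIK1, PUB22, PUB23, PUB24 and EFR) had positive called interactions, beside 26.5% of all probe sets. Their median was 1.98 beside 0.07 over all probe sets tested, and 0.59 beside -1.32 on the spike-in scale. PUB24, a ubiquitin ligase gene that dampens pattern signalling, read between -3.09 and -2.87 in Col-0 at 0 h and 1.95, 1.82 and 1.74 at 10 h. Its rps2 values lay between -3.00 and -2.57 at 0 h, 0.00 and 0.17 at 10 h, and -2.62 on the left-out array. Both genotypes rose, by 4.85 ± 0.11 and 2.87 ± 0.12, and the 10 h ranges did not overlap. Its interaction was 1.98 ± 0.16.

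The related ligase gene PUB23 rose by 5.73 in Col-0 and also rose in rps2, with an interaction of 1.54 ± 0.15, the lowest of these 3 ligase genes. With the left-out array kept PUB23 was no longer called (adjusted p = 0.0555), and 4 of the 5 members were. PUB22 had an interaction of 2.85 ± 0.33. BIK1, a cytoplasmic kinase that relays signals of these receptors, rose by 4.03 ± 0.11 in Col-0 and 1.06 ± 0.13 in rps2. It started 0.67 ± 0.11 lower in Col-0 and its interaction was 2.97 ± 0.17. EFR, the receptor of bacterial elongation factor Tu, had 0.75 ± 0.23, which turned to -0.64 on the spike-in scale.

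AT1G26380, the measured member of a list on indole and camalexin metabolism, rose from between -3.31 and -3.13 to between 4.65 and 4.81 in Col-0. In rps2 it rose from between -3.07 and -2.55 to 0.00 and 0.50. Its interaction was 4.81 ± 0.21. Of 5 measured phenylpropanoid genes, CCR2 (cinnamoyl-CoA reductase) had 3.21 ± 0.23 and HCT (hydroxycinnamoyl transferase) 1.24 ± 0.13. HCT fell in rps2 by 1.16 ± 0.09 while its Col-0 change of 0.08 was within error, and its interaction was -0.15 on the spike-in scale. HCT was not called with the left-out array kept (adjusted p = 0.0626). UGT78D1, which adds rhamnose to flavonols, had -4.43 ± 0.29, falling in Col-0 by 2.87 and rising in rps2 by 1.55.

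The endoplasmic reticulum stress regulators BZIP60 and BZIP28 had interactions of 1.64 ± 0.18 and 1.25 ± 0.11, with rises of 3.23 and 1.97 in Col-0 and of 1.59 and 0.72 in rps2. That of BZIP28 was -0.14 on the spike-in scale. The 9 measured ATG8 genes, whose products coat autophagosomes, split into 4 positive, 2 negative and 3 not called, with a median of 0.12. Over all probe sets 26.5% were positive and 25.3% negative. ATG8H read between -1.48 and -1.22 in Col-0 at 0 h and 2.37, 2.52 and 2.61 at 10 h, against 0.00 and 0.03 in rps2 at 10 h. Its interaction was 2.64 ± 0.14, followed by ATG8B at 2.46 ± 0.20 and ATG8E at 1.88 ± 0.20. APG8A had 1.28 ± 0.12, and -0.11 on the spike-in scale. ATG8D had -1.55 ± 0.19, from a level 1.95 ± 0.13 higher in Col-0 at 0 h, and was not called with the left-out array kept (adjusted p = 0.222).

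The measured genes on the photosynthesis lists had negative interactions. Of 46 listed genes of the light reactions 8 were measured. All 8 had negative called interactions, beside 25.3% of all probe sets, with a median of -2.72. Of these 8, 7 were close at 0 h, beside 15833 of the 22746 tested. LHCB4.2, an antenna protein gene of photosystem II, read 2.41, 2.37 and 2.40 in Col-0 at 0 h and -4.81, -4.60 and -4.09 at 10 h. In rps2 it read 2.59, 2.50 and 2.53 at 0 h, -0.54 and 0.00 at 10 h, and 2.56 on the left-out array. It fell in both genotypes, by 6.90 ± 0.16 and 2.81 ± 0.17, with no overlap at 10 h. The interaction was -4.09 ± 0.23.

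PSAN, a subunit of photosystem I, changed by -4.73 in Col-0 and -1.41 in rps2, and PSBY of photosystem II by -4.04 and -1.01. ATPC1, the gamma subunit of the chloroplast ATP synthase, changed by -3.14 and -0.29, and PSBW of photosystem II by -2.57 and -0.52. All 8 of these changes passed the test. These 4 interactions ran from -3.32 to -2.04. LHCB4.3 was the member different at 0 h, 1.26 lower in Col-0, with an interaction of -1.59 ± 0.25.

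The chloroplast NDH complex, which returns electrons to the plastoquinone pool in cyclic electron flow, supplied 4 of the genes picked for size in this class. NdhN read 0.54, 0.56 and 0.72 in Col-0 at 0 h and -4.48, -4.14 and -4.21 at 10 h. The rps2 arrays gave 0.39, 0.39 and 0.31 at 0 h, 0.00 and -0.31 at 10 h, and 0.32 on the left-out array. The fall was 4.88 ± 0.12 in Col-0 and 0.52 ± 0.13 in rps2, an interaction of -4.37 ± 0.17. NdhL, NdhS and the accessory gene CRR42 had -4.09 ± 0.20, -3.89 ± 0.21 and -4.15 ± 0.22. These genes were grouped, after their values were seen, by the symbols Ndh, CRR or PIFI, the last a further gene tied to NDH activity. All 9 nuclear genes so grouped, and the 8 without PIFI, had negative called interactions, beside 25.3% of all probe sets. Only 4 of the 9 were close at 0 h, and these were the genes picked for size. The others were different at 0 h, with a higher start in Col-0. The median change of the 9 was -4.13 in Col-0 and -0.65 in rps2. The least was CRR28 at -0.45 ± 0.13, which was different at 0 h and not past the threshold at 10 h.

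Carbon fixation followed. PRK, which makes the acceptor of carbon dioxide, read between 0.33 and 0.52 in Col-0 at 0 h and -4.09, -3.85 and -3.66 at 10 h, against 0.00 and -0.24 in rps2 at 10 h. Its interaction was -3.62 ± 0.18. RCA, the activase of Rubisco, had -2.67 ± 0.11 and SBPASE -3.25 ± 0.16. Both measured chlorophyll synthesis genes were called, PORB at -4.35 ± 0.22 and CHLM at -3.00 ± 0.13, beside 25.3% negative over all probe sets. PORB started 1.05 ± 0.14 higher in Col-0, whereas CHLM started 0.30 lower. LIL3:1, a light-harvesting-like protein gene that serves chlorophyll synthesis, fell by 5.07 and 0.82, an interaction of -4.25 ± 0.27.

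STOMAGEN, a mesophyll peptide gene that promotes stomata, read 0.16, 0.60 and 0.48 in Col-0 at 0 h and below -4 on all 3 arrays at 10 h. Its rps2 values lay between 0.10 and 0.34 at 0 h and 0.00 and -0.25 at 10 h, a change of -0.35 ± 0.14 that was not past the threshold (adjusted p = 0.054). Its interaction was -4.32 ± 0.19. AT1G29660 had the lowest value among the single-probe-set genes of the class at -4.96 ± 0.23, falling by 5.96 in Col-0. Few markers of other leaf cells were measured, and centred values do not show how strongly those were expressed. FMA, of guard cells, had -0.90 ± 0.13 and SWEET11, of phloem, -1.03 ± 0.16, each the sole measured member of its list. None of the listed epidermis or xylem markers had a named probe set, and the part of cell composition in these results was not tested. EXPA8, an expansin gene that loosens walls, fell by 6.75 in Col-0 and 4.46 in rps2.

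In another set of genes close at 0 h the larger change was in rps2. AT1G54020 read 1.52, 1.72 and 1.37 in Col-0 at 10 h and 7.49 and 5.23 in rps2, from values within 0.09 of 0 in both genotypes at 0 h. The left-out array read -0.02. Both genotypes rose, by 1.53 ± 0.35 and 6.38 ± 0.39, and the interaction was -4.85 ± 0.53. CSLA01, a cellulose synthase-like gene, stayed between -0.19 and 0.20 on the Col-0 arrays of 0 and 10 h and read 4.51 and 2.71 in rps2 at 10 h, an interaction of -3.78 ± 0.43.

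JAL23, a jacalin-related lectin gene, had -3.46 ± 0.39 with 4.43 and 2.97 in rps2 at 10 h. THI2.1, a thionin gene, had -2.36 ± 0.47 with 3.24 and 1.25, and NAI2, of endoplasmic reticulum bodies, -2.09 ± 0.20 with 2.94 and 2.21. CHAT, which makes a leaf volatile ester, had -2.03 ± 0.24 with 2.44 and 1.54. In each of these 6 genes the first rps2 array at 10 h was the higher of the pair and the left-out array stood at or near the 0 h range. JAL23, THI2.1, NAI2, CHAT and UGT71B1 were chosen after their values were seen. With the left-out array kept, none of the 6 was called, with adjusted p from 0.0674 for CSLA01 to 0.251 for AT1G54020. UGT71B1 fell by 0.95 in Col-0 and rose by 1.35 in rps2, and its interaction of -2.30 ± 0.25 was called either way.

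Among genes different at 0 h, several positive interactions joined a lower start in Col-0 to a higher end. GH3.3, an enzyme gene that joins amino acids to auxin, read -3.93, -4.23 and -4.04 in Col-0 at 0 h and 2.73, 3.09 and 2.75 at 10 h. In rps2 it read -1.54, -0.12 and 0.59 at 0 h, -1.54 and -1.02 at 10 h, and 0.07 on the left-out array. Every Col-0 value was below the rps2 values at 0 h and above them at 10 h. Its difference between genotypes went from -3.71 ± 0.36 to 4.14 ± 0.40, an interaction of 7.84 ± 0.54. The rps2 change of -0.92 was not past the threshold (adjusted p = 0.075).

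WRKY22, a transcription factor gene of immune signalling, read between -1.70 and -1.66 in Col-0 at 0 h and 1.87, 2.03 and 2.04 at 10 h. Its rps2 values lay between 0.07 and 0.43 at 0 h, -1.24 and -0.79 at 10 h, and 0.10 on the left-out array. It rose in Col-0 by 3.66 and fell in rps2 by 1.22, an interaction of 4.88 ± 0.18. SWEET2, a vacuolar sugar transporter gene, crossed in the same way, rising by 3.07 and falling by 2.03, an interaction of 5.10 ± 0.20.

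Other crossings included genes of growth and growth hormones. ARL, a gene of organ growth, began 2.85 lower in Col-0 and ended 1.70 higher, an interaction of 4.55 ± 0.27, with an rps2 change of 0.10 ± 0.20. IAGLU, which glucosylates auxin, had 3.73 ± 0.21 and WES1, a further GH3 gene, 2.82 ± 0.32. RR16, a response regulator gene of cytokinin signalling, had 3.81 ± 0.31. It read at most 2.69 in rps2 at 0 h and -0.41 and -0.39 at 10 h, where it fell by 2.82 ± 0.23. TBL45, of a family that acetylates wall polymers, crossed with 3.88 ± 0.22. AT2G32190 and HMT-1, a homocysteine methyltransferase gene, differed little at 0 h, by -0.46 and -0.63, and had 6.00 ± 0.24 and 4.05 ± 0.19 mostly from 10 h.

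The lowest interactions among single-probe-set genes ran in the opposite sense, from a higher start in Col-0 to a lower end. AT1G07050 read 3.27, 3.07 and 3.56 in Col-0 at 0 h and -3.17, -2.73 and -2.64 at 10 h. In rps2 it read -3.37, -3.19 and -2.83 at 0 h, 1.46 and 0.75 at 10 h, and -2.95 on the left-out array. The genotypes exchanged places with no overlap at either time. The difference went from 6.43 ± 0.21 to -3.95 ± 0.23, an interaction of -10.38 ± 0.31 (adjusted p = 2.30e-12).

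COR15A and COR15B encode chloroplast proteins that protect leaves during freezing. COR15B read 2.89, 2.83 and 2.86 in Col-0 at 0 h and -1.84, -1.95 and -1.75 at 10 h. The rps2 arrays read -0.06, -0.61 and -0.33 at 0 h, 1.39 and 1.07 at 10 h, and -0.07 on the left-out array. It fell by 4.71 in Col-0 and rose by 1.56 in rps2, an interaction of -6.27 ± 0.18. COR15A did likewise, with differences of 2.99 at 0 h and -2.60 at 10 h and an interaction of -5.60 ± 0.23.

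BCAT4, an aminotransferase gene at the entry to aliphatic glucosinolate synthesis, fell in Col-0 from 1.93, 1.37 and 1.85 to -3.91, -3.51 and -3.19. The rps2 arrays gave 0.94, 0.28 and 0.00 at 0 h, 1.40 and 0.95 at 10 h, and -0.27 on the left-out array. The interaction was -6.02 ± 0.35, most of it from the 10 h difference of -4.71. The other measured member of that list, AT2G31790, had -3.08 ± 0.22. GSTU20, a glutathione transferase gene, had -5.39 ± 0.34, falling by 4.28 in Col-0 and rising by 1.12 in rps2.

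Further crossings included AT3G28220 at -9.16 ± 0.68, TBL26 at -7.20 ± 0.47 and the methionine sulfoxide reductase gene MSRB5 at -6.31 ± 0.48. In these 3 the Col-0 change ran from -4.13 to -3.23 and the rps2 change from 3.08 to 5.04. BHLH101, a transcription factor gene of iron deficiency, had -6.05 ± 0.67. Its rps2 0 h arrays spread from -0.53 to 1.84, which widened its error.

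**Figure D3:**
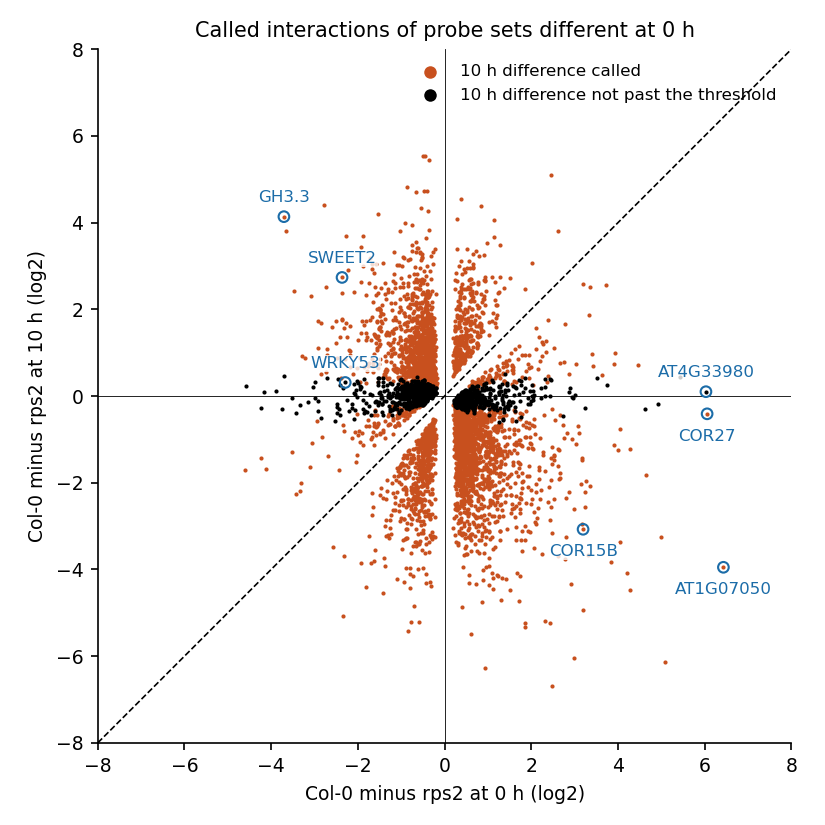
Difference Col-0 minus rps2 at 0 h (horizontal, log2) and at 10 h (vertical, log2), 1 point per probe set, for the 5222 called interactions of probe sets different at 0 h. The vertical distance from the dashed line is the interaction. Black points, 1154 in number, are not past the threshold at 10 h, and ringed genes are named in the text, with AT4G33980 and COR27 near 0 on the vertical axis and GH3.3 and AT1G07050 in opposite corners.

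For another kind of gene the unequal start carried nearly the whole interaction. COR27, a gene that links the clock to light and cold, read 0.46, 0.14 and 0.73 in Col-0 at 0 h and -5.42, -5.70 and -5.73 in rps2. At 10 h it read -0.12, 0.14 and 0.04 in Col-0 and 0.55 and 0.31 in rps2, and the left-out array read -5.65. The Col-0 level moved by -0.42 ± 0.14 while the rps2 level rose by 6.05 ± 0.16 to meet it. The gap between genotypes shrank from 6.06 ± 0.14 to -0.41 ± 0.16, which makes the interaction -6.47 ± 0.21. AT4G33980, of the same list on the clock, went from a difference of 6.03 ± 0.13 to 0.10 ± 0.15 (adjusted p = 0.592), an interaction of -5.93 ± 0.20.

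All 4 measured clock genes were different at 0 h, beside 30.1% of all probe sets. GI, a central clock gene, started 2.19 ± 0.12 higher in Col-0 and fell in both genotypes, with changes of -3.57 and -2.76. Its interaction of -0.81 ± 0.17 was not called with the left-out array kept (adjusted p = 0.0986). It turned to 1.66 after quantile normalisation of the centred values. AT5G52660 had 0.49 ± 0.16, which turned to -0.90 on the spike-in scale and was not called with the left-out array kept (adjusted p = 0.113).

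The genes that follow were chosen after their values were seen, from among the largest with a symbol whose 10 h difference was not past the threshold. Some genes of like size are not named. WRKY53, a transcription factor gene of senescence and defence, read -4.38, -4.87 and -4.87 in Col-0 at 0 h and -3.00, -2.38 and -1.86 in rps2. At 10 h it read 0.55, 0.45 and 0.53 in Col-0 and 0.00 and 0.39 in rps2, with -2.29 on the left-out array. Its difference was -2.29 ± 0.21 at 0 h and 0.31 ± 0.24 at 10 h, so the interaction of 2.61 ± 0.32 came with close final levels.

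IAA29, a repressor gene of auxin responses, fell from between 2.78 and 3.19 in Col-0 and from between 5.06 and 6.06 in rps2 to overlapping levels between -0.73 and 0.00. Its interaction was 2.25 ± 0.32 and, with the left-out array kept at 5.68, 0.29 ± 1.61 (adjusted p = 0.905). ARR15, a response regulator gene related to RR16, and FHL, which carries phytochrome A to the nucleus, had 1.95 ± 0.13 and 2.18 ± 0.18. Their rps2 changes were -2.22 and -2.40, beside Col-0 changes of -0.28 and -0.22. FHL was not called with the left-out array kept (adjusted p = 0.1). In the other direction PYE, of iron deficiency, had -2.12 ± 0.60, the dehydrin gene COR47 -1.68 ± 0.21 and the glucosinolate transporter gene GTR1 -1.44 ± 0.24. PYE read -1.80, -1.22 and 0.66 in rps2 at 0 h, against 0.03 and 0.07 at 10 h, so its 0 h difference is uncertain. GTR1 was not called with the left-out array kept (adjusted p = 0.87).

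**Figure D4:**
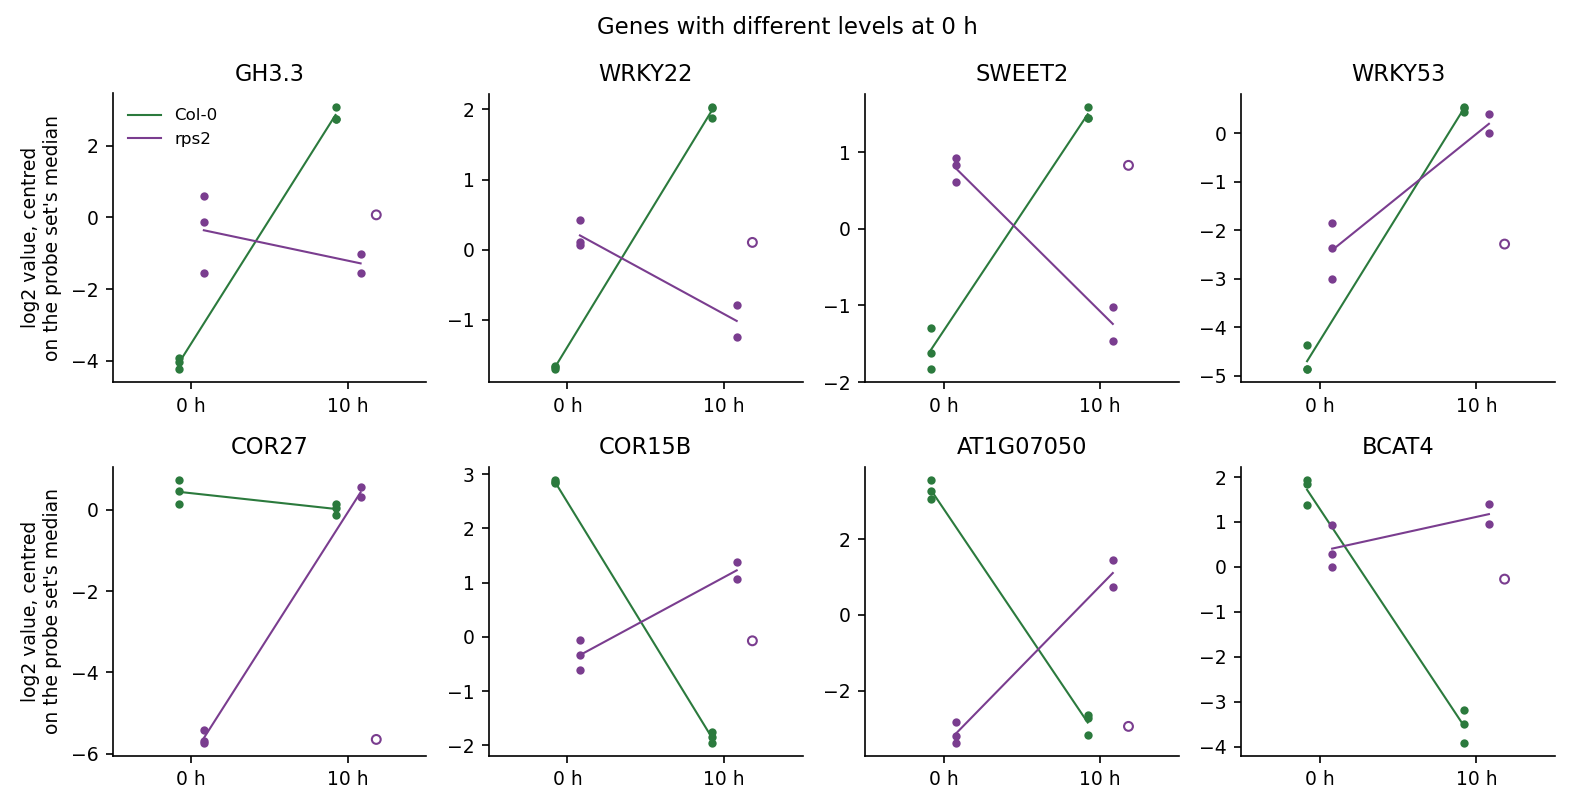
Centred log2 values at 0 and 10 h for GH3.3, WRKY22, SWEET2, WRKY53, COR27, COR15B, AT1G07050 and BCAT4, 1 filled point per array (3 per group, 2 for rps2 at 10 h). Lines join group means, Col-0 in green and rps2 in purple, and the open circle is the left-out rps2 10 h array. Lines cross for GH3.3, WRKY22, SWEET2, COR15B, AT1G07050 and BCAT4, and meet at 10 h for WRKY53 and COR27.

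By pathway, 68 of the 359 members of 22 lists had a named probe set, and 19 lists had at least 1. The WRKY list had 3 of 3 positive with a median of 3.15, all different at 0 h, with WRKY6 at 3.15 ± 0.24. Among the 6 genes labelled with a WRKY symbol, 5 were positive and 1 negative. The auxin list had 4 of 5 positive, each of these 4 different at 0 h, with a median of 2.25, and 2 of 5 with the left-out array kept. The abscisic acid and cold list had 3 of 3 negative with a median of -5.60, all different at 0 h. Those shares are set beside 26.5% positive and 25.3% negative among all probe sets. Among the 13436 probe sets linked to a named gene, 3195 were called positive and 3175 negative. The lists were chosen with earlier results of these data known, so the shares are descriptions and no test. Of the light reaction list 7 of 8 members were close at 0 h, and of the clock list 0 of 4. Over all 22746 probe sets tested, 15833 were close and 6854 (30.1%) different at 0 h.

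Of 5 measured salicylic acid and pipecolic acid genes, 2 had positive called interactions and 3 were not called, with a median of 0.34. Over all probe sets 26.5% were called positive. BSMT1, UGT76B1, GRX480 and AT5G52810 rose in both genotypes. BSMT1, which methylates salicylic acid, read 5.65, 5.90 and 5.53 in Col-0 and 6.39 and 5.11 in rps2 at 10 h, from between -0.27 and 0.00 at 0 h in both. The 10 h ranges overlapped. It rose by 5.85 ± 0.22 and 5.91 ± 0.25, and the interaction was -0.06 with a 95% interval from -0.77 to 0.65. With the first rps2 10 h array left out as a check it was 0.58 (adjusted p = 0.0219).

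UGT76B1, which glucosylates salicylic acid and related signals, rose by 8.30 ± 0.19 in Col-0 and 7.68 ± 0.21 in rps2. Its interaction of 0.61 (95% interval 0.01 to 1.22) was not called (adjusted p = 0.0824). AT5G52810 rose by 3.70 and 3.41, an interaction of 0.29 (95% interval -0.02 to 0.61). GRX480, a glutaredoxin gene induced by salicylic acid, rose by 6.51 and 5.47 and was called at 1.03 ± 0.19, with -0.36 on the spike-in scale and an adjusted p of 0.143 with the left-out array kept. UGT74F1, another glucosyltransferase gene for salicylic acid, had 0.34 ± 0.10, and -1.06 on the spike-in scale.

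Of 5 measured jasmonate genes 1 was called, beside 51.8% of all probe sets. It was PDF1.2, a defensin gene, at -2.29 ± 0.80 (adjusted p = 0.0245). Its rps2 arrays at 10 h read 2.98 and 0.04, so a single array supplied most of that value. PDF1.2 was not called with the left-out array kept (adjusted p = 0.134), which left 0 of the 5. JRG21 rose by 7.05 in Col-0 and 8.18 in rps2, with an interaction of -1.13 and a 95% interval from -2.24 to -0.01 (adjusted p = 0.0861). AT5G05600 and AT2G38240 rose by 5.89 and 6.78 in Col-0 and by 6.87 and 6.32 in rps2, and neither interaction was called. Their Col-0 0 h arrays spread from -6.16 to -3.21 and from -5.52 to -2.83, which limits what could be detected.

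ATERDJ3B, a co-chaperone gene of the endoplasmic reticulum, rose by 2.41 ± 0.08 and 2.40 ± 0.09. Its interaction was 0.01 in the main test, with a narrow 95% interval from -0.26 to 0.28. It was -1.38 on the spike-in scale, and 0.85 ± 0.68 with the left-out array kept (adjusted p = 0.353). SGT1A, a co-chaperone gene of resistance proteins, rose by 0.93 and 1.16, with -0.23 (95% interval -0.58 to 0.11). SAG101, a partner of the immune regulator EDS1, had 1.19 ± 0.16, which turned to -0.21 on the spike-in scale. A value that missed the threshold does not show that the genotypes responded alike.

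**Figure D5:**
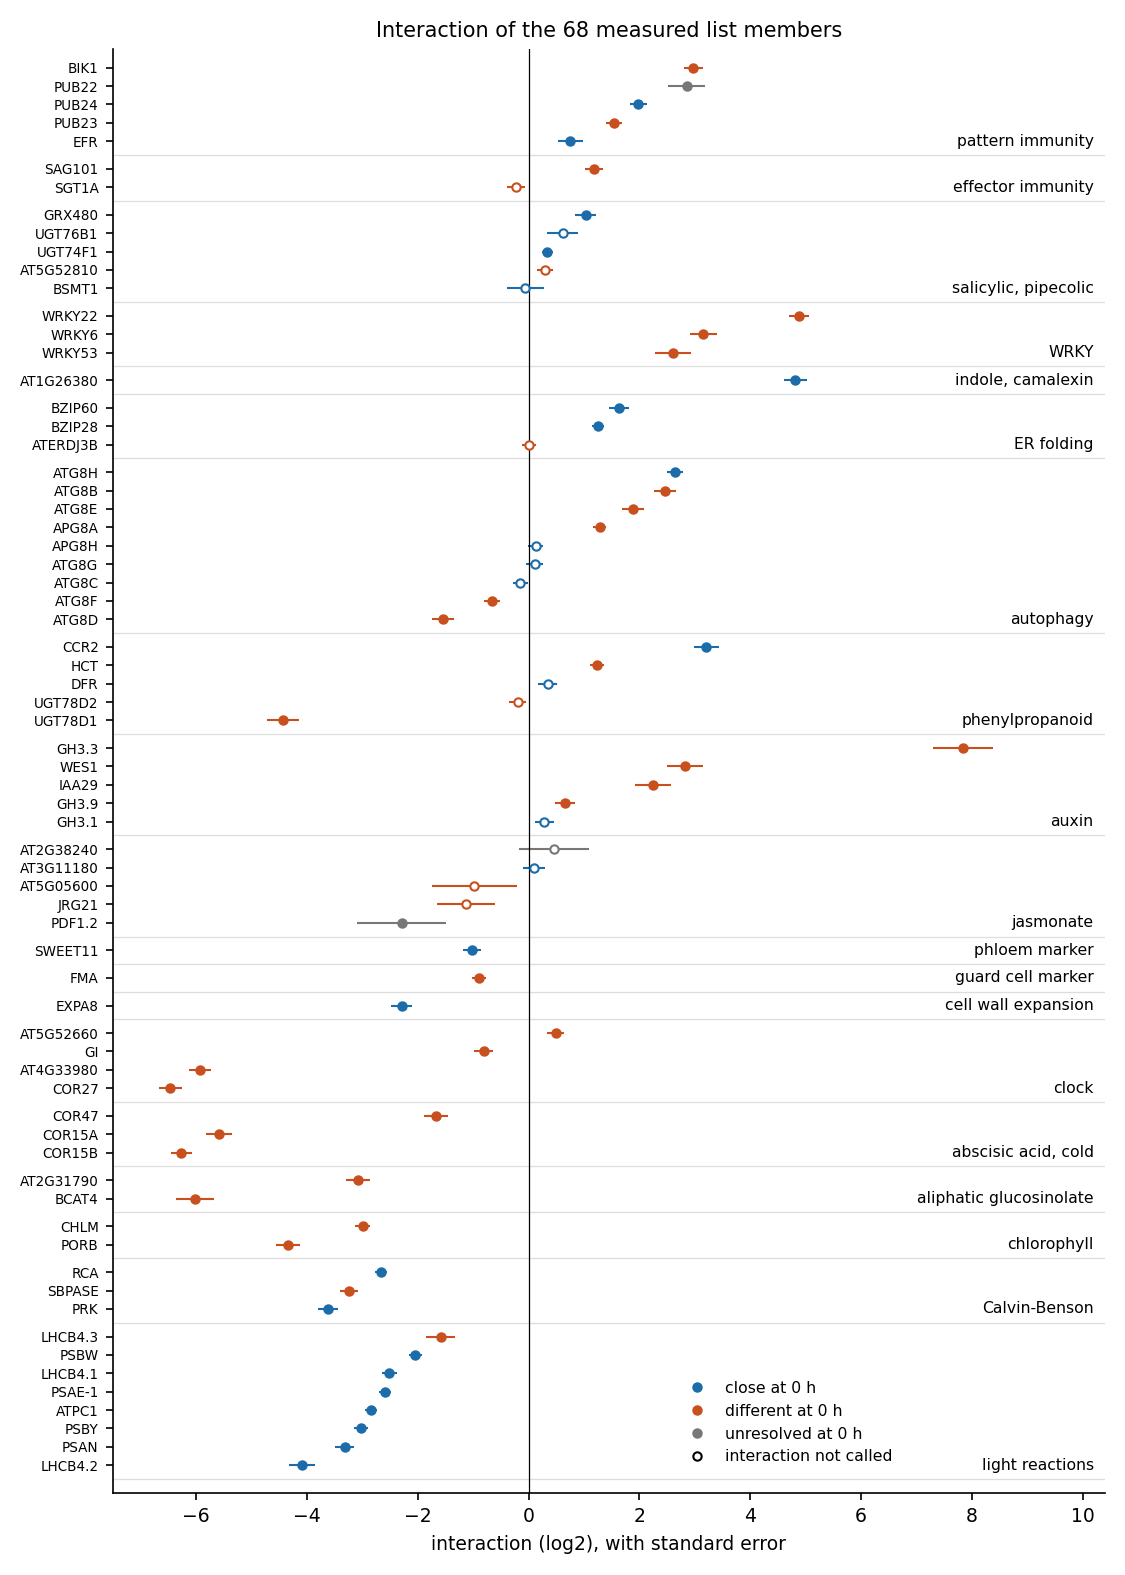
Interaction (log2, Col-0 change minus rps2 change) of the 68 measured list members, grouped by list, with bars of 1 standard error. Blue is close, orange different and grey unresolved at 0 h, and open symbols are not called. Pattern immunity and WRKY members lie to the right of 0, light reactions, Calvin-Benson, chlorophyll and cold members to the left, and most symbols of the salicylic acid and jasmonate lists are open.

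Of 41 gene families formed from symbols shared by at least 6 genes, those given, the BGLU, UGT and CML families among them, were chosen after their values were seen. Their counts stand beside 26.5% positive and 25.3% negative over all probe sets. Only 1551 probe sets were labelled by gene symbol. Family members known here by locus alone are therefore missing from these counts. Plant U-box ligases (PUB) had 7 of 9 positive and 0 negative with a median of 1.47. PUB25 was among them at 0.87 ± 0.15, which arose from a smaller fall in Col-0 than in rps2, where it fell by 2.07, and turned to -0.52 on the spike-in scale. With the left-out array kept the value of PUB25 was 0.12 ± 0.62 (adjusted p = 0.895), and 4 of the 9 PUB genes were called. Ubiquitin-specific proteases (UBP) had 9 of 12 positive and 0 negative, with a median of 0.61 and UBP19 highest at 1.85 ± 0.14. Vacuolar protein sorting genes (VPS) had 8 of 10 positive and 2 negative, with a median of 0.59, from VPS60.1 at 1.57 ± 0.15 to VPS9B at -0.96 ± 0.12. The medians of these 3 families on the spike-in scale were 0.08, -0.78 and -0.80, so the direction of UBP and VPS depends on the scale. Aldehyde dehydrogenases (ALDH) ran the other way, with 6 of 8 negative and a median of -1.61. ALDH11A3 fell by 4.05 in Col-0 and 1.43 in rps2, while ALDH2C4, which makes ferulic and sinapic acid, was the positive member at 1.36 ± 0.19 (-0.034 on the spike-in scale).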

How the data were processed

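Per the submitters' processing notes the arrays were processed with RMA (background correction, quantile normalisation, probe set summary), and the authors deposited log2 values. Each probe set had a median of 0 over the 15 arrays, which cancels in every contrast. The 64 control probe sets were set aside. Of 22746 tested, 13513 named a single gene. No depth applies, and the number of arrays limits precision.

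Group means of 14 arrays (rps2 10 h replicate 3 left out) were fitted with limma 3.58.1 in R 4.3.3 (9 residual and 5.55 prior degrees of freedom), with two-sided moderated tests and Benjamini-Hochberg adjustment. An error after ± is a standard error unless SD is written. Members and gene lists were chosen with earlier results of these data known. Named were, per 0 h class and direction, the 8 largest called interactions with a symbol and the 2 largest of any, among genes with 1 probe set and non-overlapping changes, plus all list members. Promoter sequences were not used here, and no motifs were counted. On simulated data, 87% of 100 probe sets with an interaction of 1 and 22% of 100 with 0.5 were recovered. All other simulated probe sets had no interaction, which makes the adjusted threshold stricter there than in the data.

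The alternatives were a replicate block, trended and robust variance, array weights (statmod 1.5.0), other scalings, shared probe sets left out, stricter thresholds and each array left out.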

Additional observations from a re-analysis of the deposited data

Results flagged for a closer look

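The whole interaction is a difference between genotypes under the same contrast, called for 11773 probe sets. Among genes with 1 named probe set and non-overlapping changes, the highest and lowest values in each 0 h class were 6.86 for AT1G30700 and -4.96 for AT1G29660 among those close at 0 h, and 7.84 for GH3.3 and -10.38 for AT1G07050 among those different at 0 h. The poly-A spike-ins, which lie outside the tested probe sets, had a mean of 0.98 in Col-0 at 10 h, above the means of all other groups, the highest of which was 0.07 in rps2 at 0 h. Its part in the positive interactions was not tested. Of the 11773 called interactions, 4134 turned sign on the spike-in scale, all of them positive before, and 903 of those had been at least 1. The groups of 3 arrays were too small for a test of outlying arrays.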

How the results depend on the processing

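Kept in the test, rps2 10 h replicate 3 left 10112 called interactions and 2577 of the class different at 0 h, took the 0 h difference to 3624 and the rps2 change from 10937 to 0, although 8726 had an unadjusted limma p under 0.05. Of 113 single-gene interactions 18 then lost their call, and CML41 turned to 1.04. Centring arrays on the poly-A spike-ins gave 20702 called interactions (1193 positive, 19509 negative, 16884 close at 0 h), 4300 at 0 h and 21165 at 10 h. By construction it turned UGT76B1 to -0.78, AT5G52810 to -1.10, AT2G38240 to -0.94, UGT74F1 to -1.06, GRX480 to -0.36, ATERDJ3B to -1.38, BZIP28 to -0.14, EFR to -0.64, SAG101 to -0.21, PUB25 to -0.52, HCT to -0.15, ALDH2C4 to -0.034, GH3.9 to -0.74, APG8A to -0.11, VPS20.1 to -0.32 and AT5G52660 to -0.90. Quantile normalisation of the centred values turned GI to 1.66. It forces the same spread on all arrays. Before it, the SD was 0.43 and 0.38 in the tested rps2 10 h arrays and 1.07 to 1.13 in Col-0 at 10 h. By construction it stretches the rps2 10 h values, and called rps2 changes rose to 13617. Its part in the GI value was not tested. Requiring an absolute log2 value of at least 1 left 6163 interactions (2788 positive, 3375 negative; 2994 close, 3131 different), 1229 at 0 h, 5393 at 10 h, 7710 in Col-0 and 3467 in rps2. Defining different at 0 h by that size left 1067 different and 10059 close. With each of the 11 arrays left out in turn the called interactions ran from 10600 (without rps2 10 h replicate 1) to 11727, and BSMT1 from -0.70 to 0.58.

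The replicate block gave 11540 called interactions. Same-numbered arrays of different groups did not deviate together (r from -0.17 to 0.11 over 26 pairs), so the numbers were not taken as pairs. The fit of 4 groups, trended and robust variance, array weights, median centring and shared probe sets left out kept each count within 1.5 times. A filter on low values was not run, since centred values do not measure abundance. With 2 rps2 arrays at 10 h, small interactions could be missed. The simulated recovery at 0.5 was obtained at a stricter adjusted threshold and is no detection limit for these data. The smallest interaction called here was 0.24.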

Other observations

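The 3 Col-0 arrays at 6 h do not enter the value of the interaction, although they share in the estimate of its error, and no rps2 array of that time is analysed here, so they show only where Col-0 stood midway. BGLU45 read 3.86, 3.49 and 3.73 at 6 h, between its 0 h and 10 h levels, and UGT73B4 read 2.45, 2.29 and 2.07. STOMAGEN had reached -4.22, -4.31 and -3.89, which overlaps its 10 h range. WRKY53 read 0.71, 0.73 and 0.49, also overlapping its 10 h range, and IAA29 read -0.25, -0.69 and -0.39.

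Genes that crossed between genotypes varied in where Col-0 stood at 6 h. AT1G07050 read 0.11, 0.58 and 0.00 and COR15B 0.03, 0.00 and 0.21, each between their 0 h and 10 h levels. TBL26 read -1.71, -1.51 and -1.24, which overlaps its 10 h range, and TBL45 read -0.73, -0.86 and -0.90, which overlaps its 0 h range. BSMT1 read 0.08, -0.07 and 0.26, close to its 0 h level. RR16 read -1.62, -1.60 and -1.43, below both its 0 h and its 10 h values.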
